A study of Sus scrofa with 9 samples.

Results

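This section describes a module of 98 pig genes, of 27339 in the count table, whose transcripts were scarcer with human DUX4 and more abundant with pig DUXC than with GFP in the same cells. The members were chosen from the measured values. Levels are CPM, the counts of a gene scaled to the total count of its library, and a gene was kept if its mean was at least 1 CPM with DUXC, at most 0.5 times the GFP mean with DUX4 and at least 2 times the GFP mean with DUXC, with no overlap of single libraries between GFP and either transgene group. SCARA5 was left out, as the rule states. All values of the members against GFP, and the order of DUX4 below DUXC, are therefore descriptions of the choice and carry no test.

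The libraries came from primary Göttingen minipig myoblasts, the proliferating precursors of skeletal muscle fibres, at passages 7 to 9. Each of the 3 groups had 3 libraries of poly(A) RNA: cells with a doxycycline-inducible human DUX4 transgene, with an inducible pig DUXC transgene, or with inducible GFP as the control. All groups, the control included, had 1 µg/mL doxycycline for 16 h before harvest. Whether replicate libraries were grown apart is not stated in the labels. The p-values below, which are for other genes, therefore measure only the spread seen between the libraries, and that spread may be technical.

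DUX4 is a double homeobox transcription factor that is active in the early human embryo and causes facioscapulohumeral muscular dystrophy when it is expressed in muscle. It binds DNA through its pair of homeodomains, switches on genes of the cleavage-stage embryo and interferes with the program of muscle cells. DUXC, which the pig carries, belongs to the same family.

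Total counts ranged from 36580573 to 44420895 per library, with the 3 DUXC libraries between 36580573 and 38971217. In CPM, 3 counts over the libraries of a group come to 0.0244 for GFP, 0.0239 for DUX4 and 0.0266 for DUXC. Values written with ± are the mean and SD of 3 libraries, unless named as SE. Defining muscle markers were scarce in the GFP libraries. MYOD1 had 1 count and MYOG 6 counts over the 3 libraries, PAX7 stood at 0.389 ± 0.0933 CPM, MYF5 at 0.680 ± 0.243 CPM and the intermediate filament gene DES at 6.91 ± 0.333 CPM. The median with GFP was 5.56 CPM over a myogenic list, 26.8 CPM over genes common to fibroblasts and 48.8 CPM over smooth muscle and pericyte markers, which are different genes and not set against each other. The cells are called here by their label with this limit. In bulk RNA, fewer cells that make a transcript and less of it per cell cannot be told apart, and this holds for every value below.

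Over the 98 members the mean level ranged from 0.0729 to 361 CPM with GFP (median 1.06), from 0.0159 to 160.0 CPM with DUX4 (median 0.365) and from 1.01 to 975 CPM with DUXC (median 4.75). CPM is not scaled to transcript length, so levels are compared here between groups of libraries and not between genes. The members were lower with DUX4 than with GFP by 2.00-fold to 28.7-fold, with a median of 2.59-fold, and higher with DUXC by 2.01-fold to 67.9-fold, with a median of 3.44-fold. For 60 members the fall with DUX4 was under 3-fold, for 21 it was at least 4-fold and for 9 at least 10-fold. The rise with DUXC was under 3-fold for 38, at least 4-fold for 43 and at least 10-fold for 17. Many members were scarce in the control, with 44 under 1 CPM and 15 at 10 CPM or more. With DUX4, 16 members had 10 counts or fewer over the 3 libraries and 4 of them had 3 or fewer, and none was without a count.

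**Figure D1:**
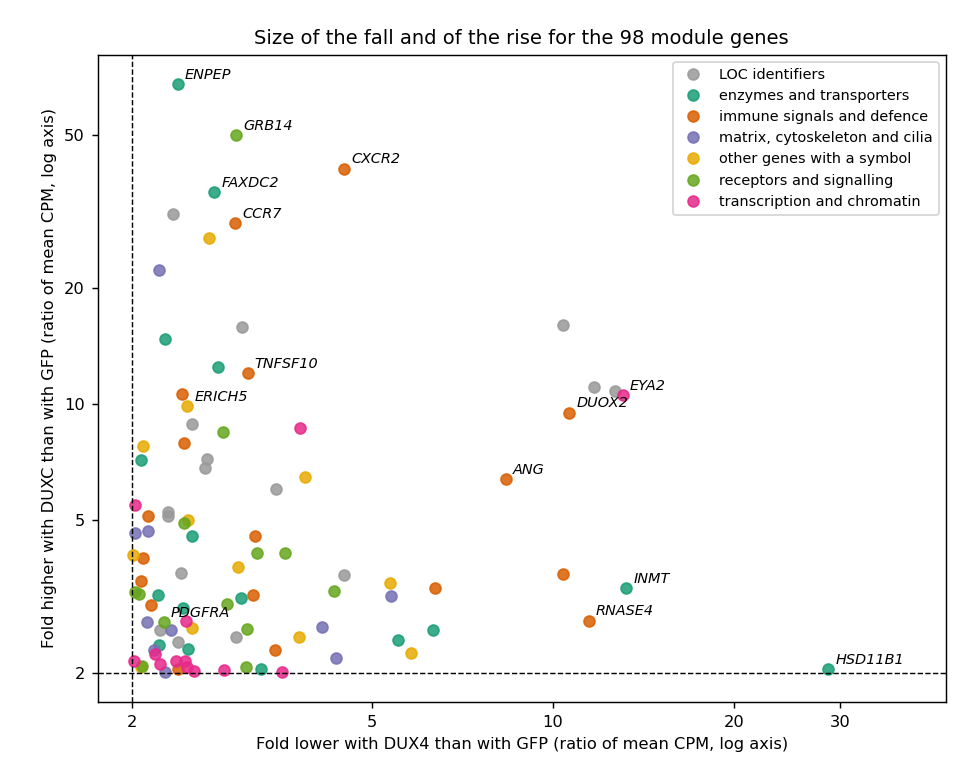
Each point is a member, with its fold lower with DUX4 than with GFP on the horizontal log axis and its fold higher with DUXC than with GFP on the vertical log axis, both as ratios of the mean CPM of 3 libraries, coloured by role. Dashed lines mark the 2-fold thresholds of the rule, ENPEP has the largest rise (67.9-fold) and HSD11B1 the largest fall (28.7-fold), and 4 members with 3 or fewer counts with DUX4, CXCR2 among them, are drawn at ratios that few counts set.

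Summed over the module, the level was 843, 838 and 842 CPM in the GFP libraries, 334, 312 and 339 CPM in the DUX4 libraries and 2619, 2621 and 2630.0 CPM in the DUXC libraries. PDGFRA alone supplied a large share of these sums. Without it the other 97 members summed to 479.8 to 480.5 CPM with GFP, 166 to 174 CPM with DUX4 and 1639 to 1658 CPM with DUXC. The sums did not overlap between groups, which the rule fixes for each gene.

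**Figure D2:**
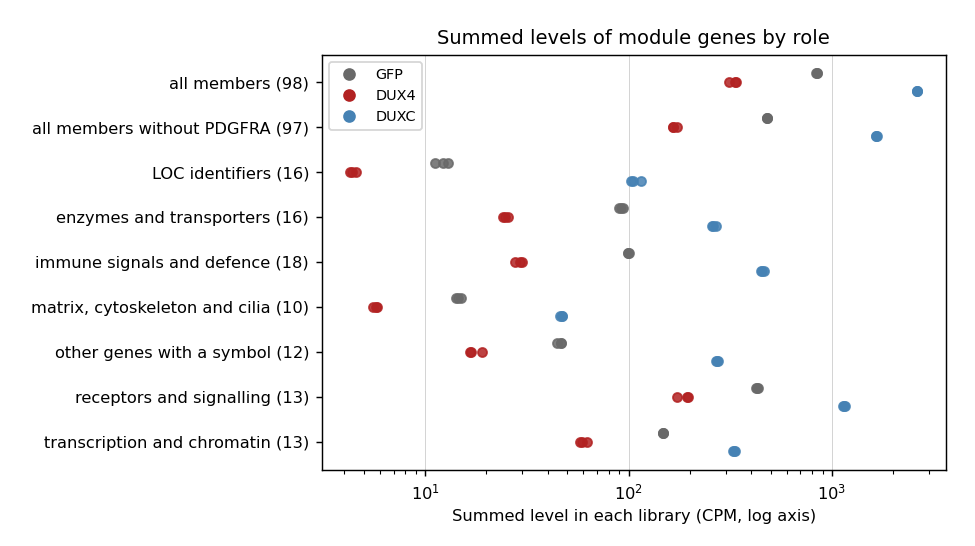
Summed CPM of the members of each role group in each of the 9 libraries, on a log axis, with the number of genes in brackets and 1 point per library. In every role group the DUX4 libraries lie lowest and the DUXC libraries highest, as the rule requires of each gene, and the sums of all 98 members run from 312 to 2630.0 CPM.

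All 98 members passed the filter on low counts and belong to the 15956 genes tested in edgeR by quasi-likelihood, with p-values adjusted by Benjamini and Hochberg's method. In that fit 93 members were called lower with DUX4 than with GFP, beside 31.9% of all tested genes called lower and 32.9% called higher. All 98 were called higher with DUXC than with GFP, beside 40.2% of tested genes called higher and 42.3% lower, and all 98 were called lower with DUX4 than with DUXC, beside 41.6% lower and 40.8% higher. The rule used these values, so nothing is read from the members' counts. The 5 members not called with DUX4 were LOC110260305, S100A9, A2ML1, PDZD3 and LOC106504373. The fit scales by TMM, which lowered the median log2 difference of DUXC from GFP by 0.12 relative to column totals, from 0.09 to -0.03.

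The 98 members were sorted by role after their values had been seen. A set of 18 encodes immune signals and defence proteins, 16 enzymes and transporters, 13 receptors and signalling proteins, 13 transcription and chromatin factors, 10 proteins of matrix, cytoskeleton and cilia and 12 other proteins with a symbol, and 16 have only a locus identifier. RefSeq lists 89 members as protein-coding and 8 as long noncoding RNA, and TMEM225B_1 has no entry. Positions below are those of RefSeq for Sscrofa11.1, the build named in the submitters' processing notes. The choice for description with the value of every library took the 10 members with a symbol and the highest mean with DUXC, the 6 with the largest ratio of DUXC to GFP and the 6 with the smallest ratio of DUX4 to GFP, which are 21 genes because RNASE4 is in 2 of these choices. Other members are named for their role, after their values were seen.

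**Figure D3:**
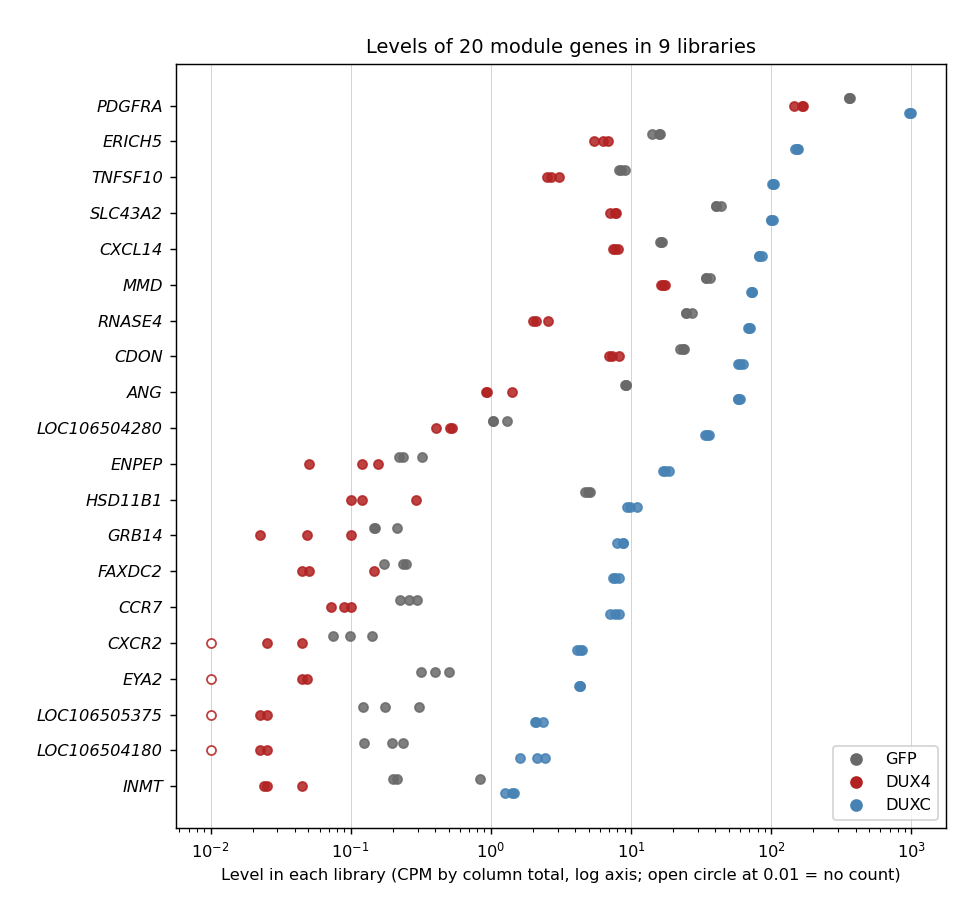
CPM by column total in each of the 9 libraries, on a log axis, for 20 of the members chosen by level, rise or fall, with 1 point per library and open circles at 0.01 for libraries without a count. For each gene the 3 DUXC points lie to the right and the 3 DUX4 points to the left of the GFP points, with PDGFRA the gene of most reads and INMT the gene whose GFP points spread most.

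Among receptors at the cell surface, PDGFRA (chromosome 8, 40966568 to 41021440) encodes the receptor tyrosine kinase for platelet-derived growth factors that marks fibroblasts and the fibro-adipogenic progenitors of muscle. It stood at 363, 357 and 362 CPM with GFP, 168, 146 and 165 CPM with DUX4 and 972, 962 and 991 CPM with DUXC. The DUX4 libraries lay at less than 0.5 times the level of any GFP library and the DUXC libraries at more than 2 times that level, so the groups were far apart. These are a 2.25-fold lower and a 2.70-fold higher mean. A list of genes common to fibroblasts holds PDGFRA and CXCL14. Without these 2 members the list summed to 17987 to 18121 CPM with GFP, 7832 to 8293 CPM with DUX4 and 8146 to 8360.1 CPM with DUXC. That sum was lower with both transgenes, while the 2 members were higher with DUXC. SFRP2, described below, supplied a large part of the sum with GFP.

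CDON (chromosome 9, 53079543 to 53178881), a co-receptor for hedgehog proteins that promotes differentiation of myoblasts, had 23.4, 22.5 and 23.9 CPM with GFP, 8.15, 7.02 and 7.33 CPM with DUX4 and 63.0, 58.5 and 60.4 CPM with DUXC. Its groups were separated by more than 10 CPM on either side of GFP. The fall was 3.10-fold and the rise 2.60-fold. MMD (chromosome 12, 31695843 to 31723723), a membrane protein of the progestin and adipoQ receptor family, had 36.3, 34.5 and 34.3 CPM with GFP, 17.5, 16.3 and 16.9 CPM with DUX4 and 73.6, 71.3 and 73.6 CPM with DUXC. Its ratios of 2.07 and 2.08 lie next to the 2-fold limits, and it no longer met the rule when CPM was scaled by TMM or by DESeq2 size factors.

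GRB14 (chromosome 15, 71119928 to 71247426) encodes an adaptor that binds the insulin receptor and restrains its signal. It was scarce without DUXC, with 0.212, 0.150 and 0.148 CPM with GFP, 0.0485, 0.0225 and 0.1004 CPM with DUX4 and 8.78, 8.78 and 7.97 CPM with DUXC. The DUXC libraries stood far above the others, by 50.02-fold over GFP, and the fall of 2.98-fold rests on 21 counts with GFP and 7 with DUX4 and was 4.79-fold without DUX4 replicate 3.

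The other receptors and signalling members spanned several pathways. ROR1, a receptor for Wnt ligands of the WNT5A type, had 1.08 ± 0.145 CPM with GFP, 0.250 ± 0.134 CPM with DUX4 and 3.54 ± 0.0292 CPM with DUXC, a fall of 4.33-fold and a rise of 3.26-fold. LPAR3, a receptor for lysophosphatidic acid, had 0.409 CPM with GFP, 0.167 CPM with DUX4 and 2.00 CPM with DUXC. Its GFP libraries were uneven, at 0.236, 0.325 and 0.665 CPM, and without GFP replicate 3 it no longer met the rule. CDCP1, a transmembrane substrate of Src kinases, had 2.22 ± 0.236 CPM with GFP, 0.620 ± 0.0983 CPM with DUX4 and 9.10 ± 0.722 CPM with DUXC. VIP, which encodes vasoactive intestinal peptide, a neuropeptide, had 1.12 ± 0.110 CPM with GFP, 0.349 ± 0.155 CPM with DUX4 and 4.59 ± 0.494 CPM with DUXC. IGDCC3, an immunoglobulin-domain receptor, was 8.45-fold higher with DUXC, the largest ratio of this group after GRB14, going from 0.253 ± 0.0816 to 2.14 ± 0.133 CPM. SEMA6B, a transmembrane semaphorin, had DUXC values of 3.09, 1.899 and 2.12 CPM that spread more than those with GFP, at 0.685, 0.725 and 0.813 CPM. The neuronal adhesion gene CNTN1, the Ral activator gene RALGPS1 and the exchange factor gene PLEKHG1 had 2.21, 4.71 and 2.24 CPM with DUXC. RALGPS1 overlaps ANGPTL2, a gene with 52417 counts with GFP, so its reads may be mixed with those of ANGPTL2 if strand was not used in counting. It left the module under either other scaling and without GFP replicate 1 or DUXC replicate 1.

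Among the immune members, 4 encode secreted or shed ligands. TNFSF10 (chromosome 13, 111021952 to 111103060) encodes TRAIL, a member of the tumour necrosis factor family that triggers apoptosis through death receptors. It stood at 9.06, 8.18 and 8.50 CPM with GFP, 2.69, 2.50 and 3.09 CPM with DUX4 and 103, 101 and 105 CPM with DUXC. All DUXC libraries exceeded 100 CPM and all others were under 10 CPM. The mean was 3.11-fold lower with DUX4 and 12.01-fold higher with DUXC.

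CXCL14 (chromosome 2, 137803988 to 137813118), a chemokine of epithelia and fibroblasts that draws monocytes and dendritic cells, had 16.5, 16.2 and 16.3 CPM with GFP, 7.42, 7.63 and 8.06 CPM with DUX4 and 82.6, 85.8 and 81.8 CPM with DUXC. The libraries of each group lay close together, and the means were 2.12-fold lower and 5.10-fold higher. CXCL16, a membrane-bound chemokine and ligand of CXCR6, had 26.0 ± 0.901 CPM with GFP, 10.9 ± 0.239 CPM with DUX4 and 53.3 ± 3.49 CPM with DUXC. CX3CL1, or fractalkine, which tethers leukocytes that carry CX3CR1, had 2.48 ± 0.356 CPM with GFP, 1.16 ± 0.119 CPM with DUX4 and 7.43 ± 0.470 CPM with DUXC. Both were about 2-fold lower with DUX4, at 2.38 and 2.15, and CXCL16 was lost from the module under either other scaling and without DUXC replicate 2.

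Receptors for chemokines were the other side of this group, and all were scarce in the control. CCR7 (chromosome 12, 21857286 to 21869211), which guides lymphocytes and dendritic cells to lymph nodes, had 0.260, 0.225 and 0.296 CPM with GFP, 0.0728, 0.0900 and 0.1004 CPM with DUX4 and 8.26, 7.70 and 7.09 CPM with DUXC. CXCR2 (chromosome 15, 120219657 to 120230203), the receptor through which neutrophils sense interleukin 8 and related chemokines, had 0.142, 0.0750 and 0.0985 CPM with GFP, 0, 0.0450 and 0.0251 CPM with DUX4 and 4.48, 4.11 and 4.30 CPM with DUXC. For both, all 3 DUXC libraries were above 4 CPM and no other library reached 0.3 CPM. Their means were 29.5-fold and 40.9-fold higher with DUXC. With DUX4, CCR7 was 2.96-fold lower, from 32 to 11 counts, and CXCR2 had 3 counts, a pooled ratio of GFP to DUX4 of 4.42 (95% counting interval 1.22 to 24.2). Without DUX4 replicate 2, which held 2 of these counts, the ratio of means of CXCR2 went from 4.49 to 8.37. Intervals of this kind cover counting error only, and since the rule chose the genes by the same counts they test nothing. CXCR5, the receptor for CXCL13 on B cells, had 0.472 ± 0.124 CPM with GFP, 0.149 ± 0.0668 CPM with DUX4 and 1.51 ± 0.166 CPM with DUXC, and overlaps BCL9L, a gene with 18319 counts with GFP.

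These receptors are known from leukocytes, so markers of such cells were read beside them. An immune cell list of 19 genes summed to 16.9 to 19.3 CPM with GFP, 15.1 to 17.0 CPM with DUX4 and 24.7 to 26.6 CPM with DUXC, with 9, 6 and 3 of its genes without a count. PTPRC, which encodes the leukocyte antigen CD45, had 0, 0 and 16 counts with GFP, DUX4 and DUXC, and CD3E of T cells had 0, 1 and 1. CD14, a co-receptor for bacterial lipopolysaccharide, rose with DUXC from 6.26 ± 0.510 to 15.8 ± 0.847 CPM (log2 fold change 1.22 ± 0.08, SE, adjusted p = 1.05e-18 in edgeR), while CSF1R of macrophages fell from 2.58 ± 0.451 to 0.418 ± 0.0646 CPM (-2.74 ± 0.22, adjusted p = 1.38e-15). The part of such cells in the members' levels was not tested.

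Secreted ribonucleases formed a neighbouring pair. RNASE4 (chromosome 7, 78244284 to 78244931) and ANG (chromosome 7, 78249479 to 78262846) encode ribonuclease 4 and angiogenin, an RNase that promotes vessel growth, and in human and mouse the genes share their promoters. RNASE4 had 24.6, 27.1 and 24.6 CPM with GFP, 2.09, 2.00 and 2.56 CPM with DUX4 and 67.9, 69.5 and 70.8 CPM with DUXC. ANG had 9.28, 9.20 and 9.04 CPM with GFP, 0.946, 1.42 and 0.929 CPM with DUX4 and 57.9, 59.5 and 58.0 CPM with DUXC. In both, the DUX4 libraries were the lowest, all below 3 CPM, and the DUXC libraries all stood above 57 CPM. RNASE4 was 11.5-fold lower and 2.73-fold higher, and ANG was 8.36-fold lower and 6.38-fold higher.

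DUOX2 (chromosome 1, 126620468 to 126641406) and DUOXA2 (chromosome 1, 126616631 to 126620359) encode an oxidase that makes hydrogen peroxide at mucosal surfaces and in the thyroid, and the factor that brings it to the cell surface. DUOX2 had 3.73, 3.68 and 3.87 CPM with GFP, 0.364, 0.495 and 0.201 CPM with DUX4 and 34.99, 37.1 and 34.8 CPM with DUXC. DUOXA2 had 1.39, 1.53 and 1.80 CPM with GFP, 0.0970, 0.180 and 0.176 CPM with DUX4 and 5.22, 5.95 and 5.80 CPM with DUXC. The DUX4 libraries were all under 0.5 CPM for both genes and the DUXC libraries all over 5 CPM. The fall was about equal, 10.6-fold and 10.4-fold, and the rise was 9.48-fold for the oxidase and 3.60-fold for its partner.

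The calcium-binding proteins S100A9 and S100A12, abundant in neutrophils and released as danger signals, were scarce without DUXC. S100A12 (chromosome 4, 96225691 to 96227030) had 0.732, 0.575 and 0.640 CPM with GFP, 0.0728, 0.158 and 0.0753 CPM with DUX4 and 2.30, 2.21 and 1.96 CPM with DUXC. S100A9 (chromosome 4, 96236114 to 96238989) had 0.0944, 0.125 and 0.296 CPM with GFP, 0.0728, 0.0900 and 0.0502 CPM with DUX4 and 2.08, 1.77 and 1.61 CPM with DUXC. The DUXC libraries were all above 1.5 CPM, and the GFP and DUX4 libraries of S100A9 were separated by less than 0.01 CPM. The fall of S100A9 rests on 21 counts with GFP and 9 with DUX4, and S100A9 left the module without GFP replicate 3.

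Among complement and coagulation genes, CFB, a serine protease of the alternative pathway, had 1.99 ± 0.105 CPM with GFP, 0.961 ± 0.152 CPM with DUX4 and 6.86 ± 0.102 CPM with DUXC. C9, which forms the pore of the membrane attack complex, had 1.03 ± 0.105 CPM with GFP, 0.324 ± 0.142 CPM with DUX4 and 4.70 ± 0.343 CPM with DUXC. F2, the precursor of thrombin, had 0.527 ± 0.0766 CPM with GFP, 0.153 ± 0.0446 CPM with DUX4 and 1.21 ± 0.258 CPM with DUXC. Each was lower with DUX4 by 2.07-fold to 3.45-fold. CISH, a feedback inhibitor of cytokine receptors that signal through STAT5, had 1.03 CPM with GFP, 0.496 CPM with DUX4 and 4.09 CPM with DUXC, and GVIN1, a giant GTPase gene induced by interferon in mouse, had 0.490 CPM with GFP, 0.201 CPM with DUX4 and 3.87 CPM with DUXC. GVIN1 lies beside LOC110255360 and LOC110255361, and reads shared between similar copies could not be resolved here.

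Among transcription and chromatin factors, EYA2 (chromosome 17, 48930682 to 49243789), a phosphatase and cofactor of sine oculis homeobox factors in muscle development, stood near the floor with DUX4. Its values were 0.401, 0.5003 and 0.320 CPM with GFP, 0.0485, 0.0450 and 0 CPM with DUX4 and 4.32, 4.26 and 4.30 CPM with DUXC. DUX4 replicate 3 had no count, and all DUXC libraries were above 4 CPM. The fall was 13.1-fold on 4 counts with DUX4 and the rise 10.5-fold. HEYL, a repressor induced by Notch in smooth muscle and satellite cells, had 0.519, 0.450 and 0.517 CPM with GFP, 0.146, 0.0450 and 0.201 CPM with DUX4 and 4.24, 4.57 and 4.03 CPM with DUXC. It was 3.80-fold lower and 8.63-fold higher. HOXC13, the posterior HOX gene known from hair and nails, had 3.52 ± 0.213 CPM with GFP, 1.74 ± 0.0300 CPM with DUX4 and 19.2 ± 1.24 CPM with DUXC, with the fall next to its limit at 2.02-fold.

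Several factors were moderately abundant in the control. MITF, a basic helix-loop-helix factor of melanocytes and lysosome genes, had 25.4 ± 2.18 CPM with GFP, 10.02 ± 0.364 CPM with DUX4 and 51.2 ± 2.30 CPM with DUXC. NR4A3, an orphan nuclear receptor of the immediate early class, had 12.6 ± 0.553 CPM with GFP, 4.45 ± 0.401 CPM with DUX4 and 25.7 ± 1.23 CPM with DUXC. ZBTB7C, ZNF385A and MN1 had 10.9 ± 0.816, 10.5 ± 0.771 and 8.10 ± 0.281 CPM with GFP. All 5 were 2.02-fold to 2.14-fold higher with DUXC and none met the rule after TMM scaling. MITF, NR4A3 and MN1 were also lost with DESeq2 size factors. MITF and NR4A3 were lost without GFP replicate 3 or DUXC replicate 3 as well, and MN1 without DUXC replicate 2. CBX7, a chromatin reader of Polycomb repressive complex 1, had 2.50 ± 0.167 CPM with GFP, 1.02 ± 0.0396 CPM with DUX4 and 6.83 ± 0.609 CPM with DUXC, and its rise of 2.73-fold stayed past the limit under both scalings. BACH2, a repressor known from B cells, had 1.78 CPM with GFP, 0.502 CPM with DUX4 and 3.58 CPM with DUXC, and left the module under either other scaling and without 3 of the 9 libraries in turn. ZIC1, a zinc finger factor of the neural plate and dermomyotome, had 1.06 CPM with GFP, 0.485 CPM with DUX4 and 2.36 CPM with DUXC, and ZFP57, which protects imprinted methylation, had 0.741 CPM with GFP, 0.368 CPM with DUX4 and 1.59 CPM with DUXC.

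SLC43A2 (chromosome 12, 47791911 to 47839127) encodes LAT4, a transporter of branched-chain and other neutral amino acids. It had 40.6, 40.5 and 43.6 CPM with GFP, 7.11, 7.81 and 7.68 CPM with DUX4 and 100.2, 103 and 100.5 CPM with DUXC. DUX4 libraries were all under 8 CPM and DUXC libraries all at about 100 CPM or more, a fall of 5.52-fold and a rise of 2.44-fold.

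HSD11B1 (chromosome 9, 133231451 to 133278396), the enzyme that regenerates active glucocorticoid inside cells, had the deepest fall of the module. It had 5.12, 4.90 and 4.73 CPM with GFP, 0.121, 0.293 and 0.1004 CPM with DUX4 and 9.76, 10.98 and 9.32 CPM with DUXC. The DUX4 libraries held 22 counts in all against 605 with GFP, 28.7-fold less by the mean and 44.4-fold less without DUX4 replicate 2. Its rise of 2.04-fold is at the limit, and HSD11B1 no longer met the rule under TMM or DESeq2 scaling, without GFP replicate 3 or without DUXC replicate 2. Its span overlaps C9H1orf74, which had 11.6 ± 0.132 CPM with GFP, 9.22 ± 0.538 CPM with DUX4 and 9.42 ± 0.853 CPM with DUXC.

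ENPEP (chromosome 8, 111765839 to 111858349), the aminopeptidase A that cleaves angiotensin II, had the largest rise. Its values were 0.236, 0.325 and 0.222 CPM with GFP, 0.121, 0.158 and 0.0502 CPM with DUX4 and 17.1, 18.6 and 17.5 CPM with DUXC. DUXC libraries were all above 17 CPM and all others under 0.4 CPM, a ratio of 67.9. The lower level with DUX4, by 2.38-fold, rests on 14 counts against 32, and ENPEP left the module without DUX4 replicate 3. FAXDC2 (chromosome 16, 68359243 to 68389968), a membrane protein of the fatty acid hydroxylase superfamily, had 0.236, 0.250 and 0.172 CPM with GFP, 0.146, 0.0450 and 0.0502 CPM with DUX4 and 7.44, 8.26 and 7.65 CPM with DUXC. DUX4 replicate 1 lay close below the GFP libraries and the others were lower. The rise was 35.5-fold and the fall 2.74-fold, or 4.61-fold without DUX4 replicate 1.

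INMT (chromosome 18, 42213335 to 42218175), which methylates tryptamine and related amines, was scarce throughout. It had 0.212, 0.2001 and 0.837 CPM with GFP, 0.0243, 0.0450 and 0.0251 CPM with DUX4 and 1.26, 1.46 and 1.42 CPM with DUXC. GFP replicate 3 was about 4 times as high as the other GFP libraries and supplied much of the mean, and the DUX4 libraries had 4 counts in all. The groups did not overlap. The fall of 13.2-fold leans on that library and was 6.56-fold without it, and the rise went from 3.31-fold to 6.69-fold.

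Other metabolic members covered separate steps. OXCT1, which starts the use of ketone bodies, had 4.78 ± 0.110 CPM with GFP, 1.58 ± 0.233 CPM with DUX4 and 14.9 ± 0.458 CPM with DUXC. SPTLC3, a subunit of the first enzyme of sphingolipid synthesis, had 1.51 ± 0.242 CPM with GFP, 0.729 ± 0.179 CPM with DUX4 and 10.8 ± 0.301 CPM with DUXC. CDO1, which oxidises cysteine, had 2.61 ± 0.0919 CPM with GFP, 1.08 ± 0.0783 CPM with DUX4 and 7.71 ± 0.324 CPM with DUXC. TM7SF2, a sterol reductase of cholesterol synthesis, had 1.09 CPM with GFP, 0.494 CPM with DUX4 and 3.46 CPM with DUXC, and GCNT4, which branches O-linked glycans, had 1.26 CPM with GFP, 0.199 CPM with DUX4 and 3.25 CPM with DUXC, a fall of 6.31-fold. The proteases were the lysosomal CTSL, with 23.3 ± 0.869 CPM with GFP, 9.43 ± 0.158 CPM with DUX4 and 53.7 ± 1.58 CPM with DUXC, and the secreted ADAMTS8, with 0.568 ± 0.0834 CPM with GFP, 0.205 ± 0.0733 CPM with DUX4 and 7.09 ± 0.781 CPM with DUXC. CLIC2, an intracellular chloride channel protein, had 8.03 CPM with GFP, 2.46 CPM with DUX4 and 16.4 CPM with DUXC, and left the module under either other scaling and without DUXC replicate 2. The protease inhibitor gene A2ML1, the phospholipid flippase gene ATP8B3 and the mitochondrial carrier gene SLC25A35 had 2.16, 2.19 and 1.92 CPM with DUXC.

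Genes of matrix, cytoskeleton and cilia were scarce with GFP, at 0.391 to 3.51 CPM. MATN2, a matrix adaptor protein, had 3.03 ± 0.457 CPM with GFP, 0.693 ± 0.197 CPM with DUX4 and 6.58 ± 0.361 CPM with DUXC, a fall of 4.37-fold. PALMD, or palmdelphin, a cytosolic regulator of actin in muscle cells, had 0.522 ± 0.0897 CPM with GFP, 0.0970 ± 0.0465 CPM with DUX4 and 1.65 ± 0.359 CPM with DUXC. MISP, an actin-bundling protein of the mitotic spindle, had the largest ratio of this group with DUXC, 22.3-fold, going from 0.391 ± 0.0116 to 8.70 ± 0.803 CPM. KLHL40, which stabilises thin filaments and is mutated in nemaline myopathy, had 0.584 CPM with GFP, 0.258 CPM with DUX4 and 1.17 CPM with DUXC, and left the module under either other scaling and without 4 of the 9 libraries in turn. DNAH3 and CFAP52 of motile cilia, CTNNA2, which links cadherins of neurons to actin, FEZ1, a kinesin adaptor, and SYT16 of the synaptotagmin family had 1.54 to 8.04 CPM with DUXC.

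ERICH5 (chromosome 4, 38669327 to 38702114), a gene for a glutamate-rich protein, was the most abundant in reads of those placed under no role. It had 16.1, 15.9 and 14.2 CPM with GFP, 5.46, 6.33 and 6.90 CPM with DUX4 and 152, 148 and 155 CPM with DUXC. All DUXC libraries were near 150 CPM, and GFP and DUX4 libraries did not overlap. The ratios were a fall of 2.47-fold and a rise of 9.87-fold. GLIPR1, of the CAP family of secreted proteins, had 6.31 ± 0.535 CPM with GFP, 3.03 ± 0.381 CPM with DUX4 and 49.2 ± 0.335 CPM with DUXC, and its span overlaps that of KRR1, a gene that passed as higher in both comparisons, with 31.7 CPM with GFP, 36.8 CPM with DUX4 and 40.8 CPM with DUXC. PCNX2 and KIAA1217 had 29.7 ± 0.545 and 13.3 ± 0.749 CPM with DUXC, and TMEM178A, an inhibitor of calcium release, and TMEM225B_1 had 8.37 ± 0.414 and 9.79 ± 0.688 CPM. PDZD3, a PDZ domain protein, went from 0.105 ± 0.0342 CPM with GFP to 2.84 ± 0.124 CPM with DUXC, on 13 counts with GFP. With DUX4 it stood at 0.0392 CPM, and it left the module without DUX4 replicate 1. The span of PDZD3 overlaps CCDC153, which had 0.988 ± 0.181 CPM with GFP, 0.742 ± 0.0304 CPM with DUX4 and 1.59 ± 0.0806 CPM with DUXC. TTC39A, CDKL4, ANKDD1B, SPATA18 and FAM26D stood at 1.17 to 2.16 CPM with DUXC. TTC39A left the module under either other scaling and without 5 of the 9 libraries in turn.

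Of the 16 members with a locus identifier, LOC106504280 (chromosome 6, 168636740 to 168653778), a long noncoding RNA, had the most reads. It had 1.04, 1.30 and 1.03 CPM with GFP, 0.509, 0.405 and 0.527 CPM with DUX4 and 35.1, 36.3 and 33.6 CPM with DUXC. DUXC libraries were all above 33 CPM and all others under 1.5 CPM, a rise of 31.1-fold and a fall of 2.34-fold. It overlaps ERMAP, a membrane protein gene of red blood cells, which had 0.180 ± 0.0329 CPM with GFP, 0.154 ± 0.131 CPM with DUX4 and 0.960 ± 0.126 CPM with DUXC and passed only as higher with DUXC.

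The long noncoding RNA LOC106505375 (chromosome 13, 87732391 to 87735798) and the protein-coding LOC106504180 (chromosome 3, 114361727 to 114366470) had 2 counts each with DUX4. LOC106505375 had 0.307, 0.175 and 0.123 CPM with GFP, 0, 0.0225 and 0.0251 CPM with DUX4 and 2.35, 2.08 and 2.09 CPM with DUXC. LOC106504180 had 0.236, 0.125 and 0.197 CPM with GFP, 0, 0.0225 and 0.0251 CPM with DUX4 and 1.61, 2.44 and 2.12 CPM with DUXC. For both, DUX4 replicate 1 had no count and the DUXC libraries were all above 1.5 CPM. The pooled ratios of GFP to DUX4 were 12.8 (95% counting interval 3.18 to 111) and 11.7 (95% counting interval 2.90 to 103). LOC106504373 had 3 counts with DUX4 and 9 with GFP, a ratio of 3.06 (95% counting interval 0.764 to 17.6). As for CXCR2, these intervals cover counting error only and test nothing, since the rule chose the genes by the same counts. LOC106504180 overlaps ITSN2, a gene with 7066 counts with GFP.

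Some members lay next to each other on several chromosomes, a feature the rule did not use. How often other genes lie this close was not counted, so no clustering is read from the numbers below. Of 96 members with a position on a chromosome, 25 had another member within 500 kb, in 14 pairs. In 4 of these pairs less than 10 kb separated the genes: 108 bases between DUOXA2 and DUOX2, 4547 bases between RNASE4 and ANG, 4970 bases between LOC106505375 and ZIC1 and 9083 bases between S100A12 and S100A9. CXCR2 lay 24882 bases from LOC100515345, a protein-coding gene with 0.490 ± 0.122 CPM with GFP, 0.0471 ± 0.0213 CPM with DUX4 and 7.86 ± 0.496 CPM with DUXC. On chromosome 9, GVIN1, LOC110255360 and LOC110255361 lay within a stretch in which LOC110255360 had 2.00 ± 0.0275 CPM with GFP, 0.577 ± 0.0927 CPM with DUX4 and 12.01 ± 1.40 CPM with DUXC and LOC110255361 had 1.37 ± 0.332 CPM with GFP, 0.599 ± 0.196 CPM with DUX4 and 6.99 ± 1.41 CPM with DUXC. ERICH5 and MATN2 were 41910 bases apart with 1 gene between them. The other pairs, TMEM178A with CDKL4, CXCR5 with PDZD3, HOXC13 with ZNF385A, FEZ1 with CDON and GCNT4 with ANKDD1B, were more than 200 kb apart. Chromosome 9 held 9 members (9.28%), beside 4.90% of tested genes, and chromosome 1 held 11 (11.3%), beside 8.56%. The share was the smaller one on chromosome 6, with 8 members (8.25%, beside 10.9%), on chromosome 14, with 2 (2.06%, beside 6.36%), and on X, with 1 (1.03%, beside 3.55%). These shares are descriptions and were not tested.

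**Figure D4:**
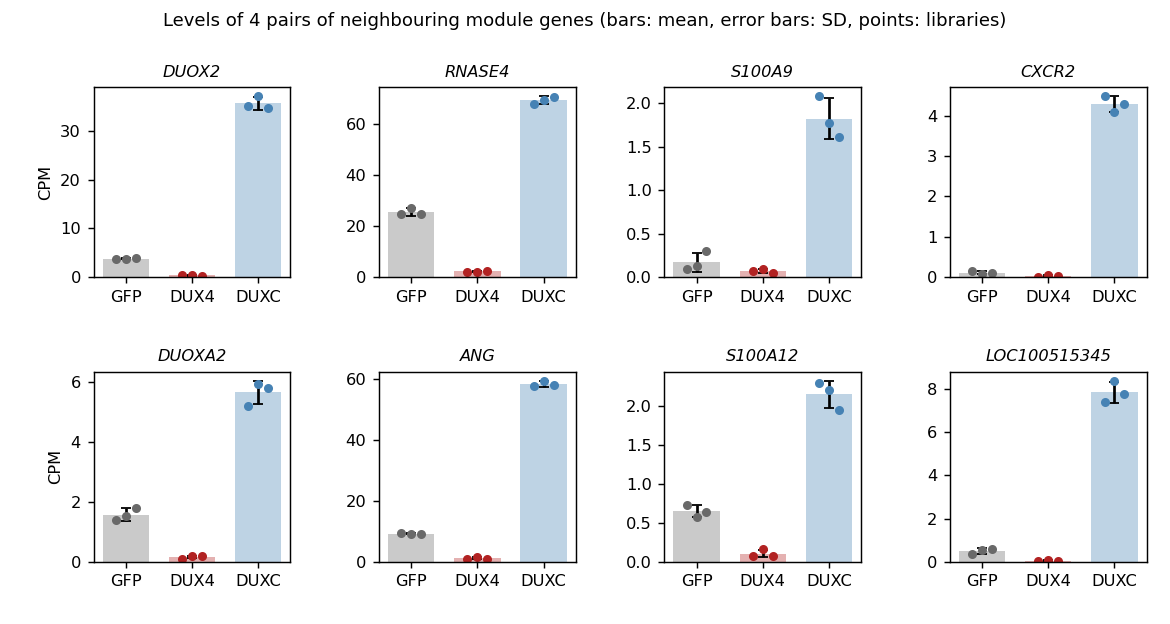
CPM of 4 pairs of neighbouring members in the GFP, DUX4 and DUXC groups, with bars for the mean, error bars for the SD of 3 libraries and points for single libraries, each panel on its own axis from 0. In all 8 genes the DUXC bar is the tallest and the DUX4 bar the lowest, from 0.353 to 35.6 CPM for DUOX2 and from 2.22 to 69.4 CPM for RNASE4.

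The genes next to members, which the rule did not choose, were then read from the same fit. There were 177 tested flanking genes that are not members. With DUX4, 74 of them passed as lower and 46 as higher (41.8% and 26.0%, beside 31.9% and 32.9% of all tested genes), with a median log2 fold change of -0.06 beside 0.00 over all genes. With DUXC, 76 passed as lower and 78 as higher (42.9% and 44.1%, beside 42.3% and 40.2%), with a median of 0.03 beside -0.03. Between the transgenes, 82 were lower with DUX4 and 65 higher (46.3% and 36.7%, beside 41.6% and 40.8%). Within 50 kb of a member there were 110 such genes. With DUX4, 47 of the 110 were lower and 26 higher (42.7% and 23.6%). With DUXC, 49 were lower and 51 higher (44.5% and 46.4%). Both comparisons use the same GFP libraries, so their calls are given side by side only.

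Flanking genes that passed in both comparisons in the members' directions are named here with their own tests. They were picked for this pattern, so nothing about flanking genes in general is read from them. DAB2, an endocytic adaptor 14.7 kb from C9, stood at 357, 354 and 360.1 CPM with GFP, 131, 130.2 and 139 CPM with DUX4 and 624, 602 and 605 CPM with DUXC, and no library of one group reached another group. Its log2 fold changes were -1.44 ± 0.03 (SE) with DUX4 (adjusted p = 8.09e-38 in edgeR) and 0.65 ± 0.03 with DUXC (adjusted p = 1.08e-24). MAP4K3, a kinase of amino acid signalling that lies between TMEM178A and CDKL4 and 124 bases from the nearer, stood at 82.1 ± 5.50 CPM with GFP, 45.7 ± 0.561 CPM with DUX4 and 102 ± 4.10 CPM with DUXC, with log2 fold changes of -0.87 ± 0.04 and 0.19 ± 0.04. NCEH1, a cholesteryl ester hydrolase 45.6 kb from TNFSF10, stood at 12.1 ± 0.616 CPM with GFP, 10.5 ± 0.192 CPM with DUX4 and 102 ± 0.664 CPM with DUXC. Most of its change was the rise with DUXC (2.96 ± 0.05), and the fall with DUX4 was small (-0.22 ± 0.06, adjusted p = 0.00110). CHIC2, 119.9 kb from PDGFRA, stood at 28.2 ± 0.406 CPM with GFP, 25.1 ± 0.838 CPM with DUX4 and 49.7 ± 0.857 CPM with DUXC, with -0.19 ± 0.05 and 0.69 ± 0.04.

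The other genes of this kind are given by their log2 fold changes. CNOT8, a deadenylase subunit gene 7.22 kb from FAXDC2, changed by -0.17 ± 0.04 with DUX4 and 0.77 ± 0.04 with DUXC, and CBFA2T2, a corepressor gene also next to a member, by -0.24 ± 0.05 and 2.14 ± 0.04. OLFML2B and C4H1orf226, next to LOC110260305, changed by -0.79 ± 0.16 and -0.72 ± 0.10 with DUX4 and by 1.20 ± 0.12 and 2.33 ± 0.07 with DUXC. MUC19 beside CNTN1, LOC100625694 and LOC100625971 beside LOC100517161, TMEM159 beside DNAH3 and PHC1 beside A2ML1 had log2 fold changes of -0.95 to -0.35 with DUX4 and of 0.53 to 1.17 with DUXC. C16H5orf51, EPC1, FIGN, LOC102166801, RNF11, SOS1, STX17 and ZBTB44 were others, of which LOC102166801 and C16H5orf51 lost the call with DUXC, and SOS1 that with DUX4, under other scalings, filters or subsets of libraries. AGTR1, the receptor for angiotensin II and the next tested gene beyond ZIC1 at a distance of 1185 kb, stood at 1.73 ± 0.304 CPM with GFP, 1.17 ± 0.0792 CPM with DUX4 and 60.7 ± 2.83 CPM with DUXC. Its log2 fold changes were -0.60 ± 0.16 with DUX4 (adjusted p = 0.000938) and 5.004 ± 0.08 with DUXC (adjusted p = 3.23e-44).

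Some members overlap other genes, and the labels and notes used here do not say whether strand was used in counting, although the kit marks strand. Of the 98 members, 27 overlap the span of another gene of the table. Of the overlapping genes, 20 were tested. With DUX4, 11 of the 20 were lower and 2 higher, beside 31.9% and 32.9% of all tested genes. With DUXC, 10 of the 20 were lower and 7 higher, beside 42.3% and 40.2% of all tested genes. The median log2 fold changes were -0.37 with DUX4 and -0.12 with DUXC, beside 0.00 and -0.03 over all tested genes. The 20 genes were not tested as a set. ZIC4, which overlaps LOC106505375, had 11 counts with GFP, 4 with DUX4 and 176 with DUXC. FAM26E, which overlaps FAM26D, fell in both comparisons, with 58.4 ± 3.13 CPM with GFP, 20.3 ± 0.668 CPM with DUX4 and 34.6 ± 0.712 CPM with DUXC. POC5, which overlaps ANKDD1B, rose in both, with 7.88 ± 0.260 CPM with GFP, 16.1 ± 0.969 CPM with DUX4 and 28.1 ± 1.48 CPM with DUXC. Reads shared with these genes were not separated, and their part in the members' levels was not tested.

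Other genes of the members' pathways were read from 45 lists written with earlier results of these data known, 22 of which hold 25 of the members. Members were left out of the counts. Over the 22 lists, 1058 other tested genes had 377 lower and 392 higher with DUX4, and 438 lower and 452 higher with DUXC, shares of 35.6% and 37.1% and of 41.4% and 42.7%. These lie near the shares of all tested genes, 31.9% and 32.9% with DUX4 and 42.3% and 40.2% with DUXC. Log2 fold changes below are fitted values with their SE, n = 3 libraries a group, and both comparisons share the GFP libraries. A gene can pass the low-count filter through a single group in which it is high, so the filter partly sets the list counts. The counts of each list are descriptions, to be set beside these shares of all tested genes, and no list was tested as a set.

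**Figure D5:**
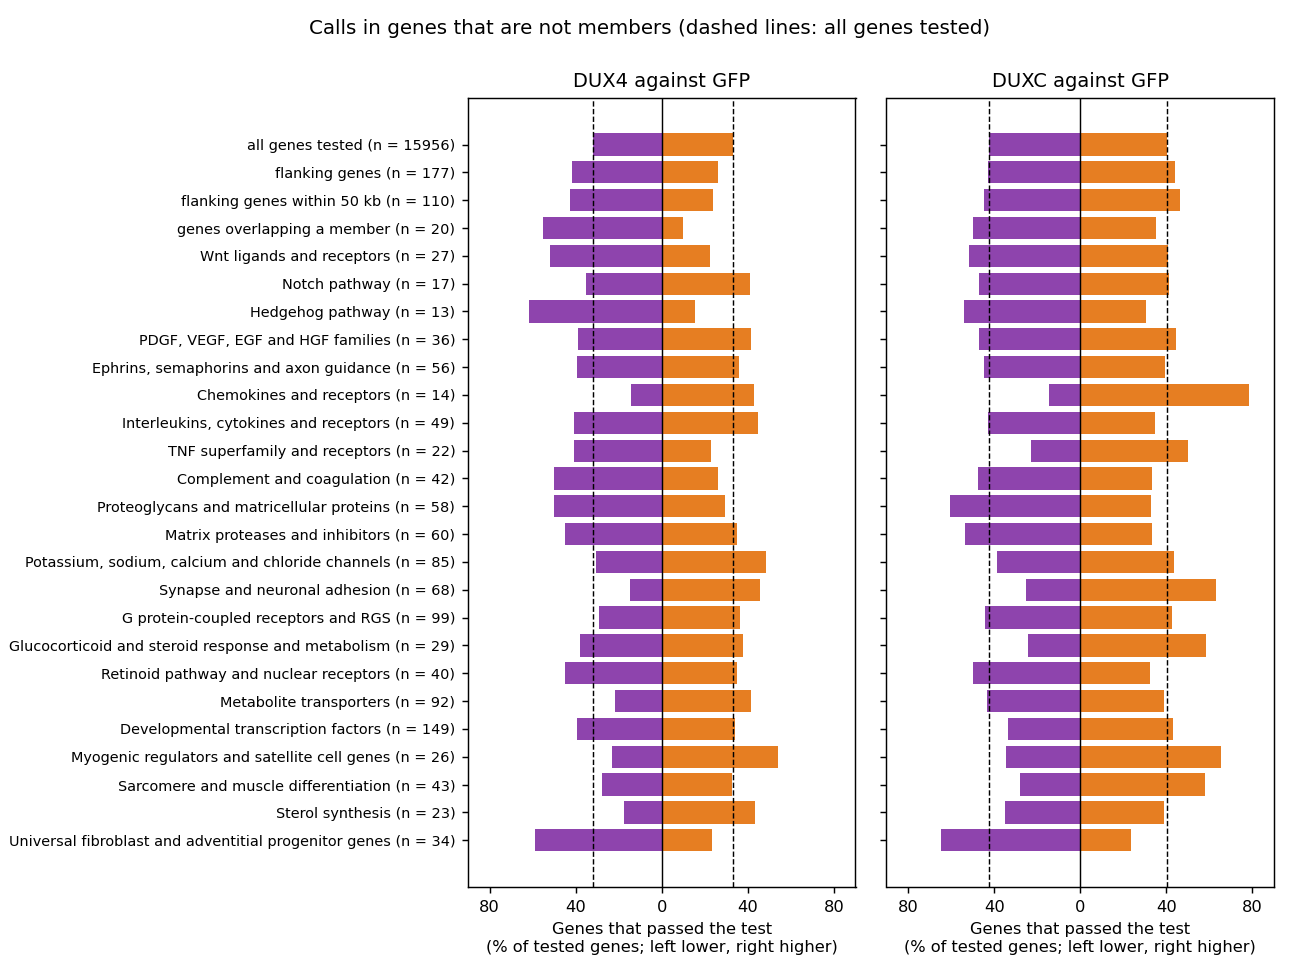
Share of tested genes that passed as lower (left) and as higher (right) against GFP, in percent, for all tested genes, for genes flanking or overlapping members and for the lists that hold a member, with members left out and the number tested in brackets. Dashed lines mark all tested genes, and genes common to fibroblasts stand to the left with both transgenes (58.8% and 64.7% lower). Chemokines and receptors stand to the right with DUXC (78.6% of the 14 that passed the filter). Some of the 14 passed only through libraries in which they are high, so the filter partly sets this share.

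Of 31 chemokine and chemokine receptor genes in the table that are not members, 14 passed the filter on low counts, some of them only through the libraries in which they are high. Of the 14, 2 were lower and 6 higher with DUX4, 2 were lower and 11 higher with DUXC, and 12 were lower with DUX4 than with DUXC. Of all tested genes, 32.9% were higher with DUX4, 40.2% higher with DUXC and 41.6% lower with DUX4 than with DUXC. The filter partly sets the counts of the 14, so nothing is read from their shares. CCL20, which draws cells with CCR6, stood at 0.0648 ± 0.0371 CPM with GFP, 3.58 ± 0.432 CPM with DUX4 and 55.7 ± 2.02 CPM with DUXC, on 8 counts with GFP, and rose by 5.69 ± 0.25 and 9.55 ± 0.14. CCL5 stood at 0.511 ± 0.0718 CPM with GFP, 0.817 ± 0.210 CPM with DUX4 and 6.89 ± 0.559 CPM with DUXC. CCL4 had 1, 6 and 551 counts. ACKR3, a scavenger receptor for CXCL12, went the other way, with 101 ± 1.24 CPM with GFP, 172 ± 3.50 CPM with DUX4 and 60.1 ± 2.30 CPM with DUXC. Without the filter, 2 counts of this list moved by more than 1.5 times. No share over all genes without the filter is given here, so nothing is read from those counts either.

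In the tumour necrosis factor family, the 22 genes other than TNFSF10 had 9 lower and 5 higher with DUX4 and 5 lower and 11 higher with DUXC. TNFSF18, the ligand of the receptor GITR, stood at 11.7, 12.6 and 12.3 CPM with GFP, 1.36, 1.15 and 1.46 CPM with DUX4 and 18.8, 18.2 and 19.7 CPM with DUXC. Its groups did not overlap, and it fell with DUX4 (-3.24 ± 0.10, adjusted p = 5.50e-31) and rose with DUXC (0.51 ± 0.07, adjusted p = 2.03e-09), less than the 2-fold the rule asks. TNF had 2, 7 and 1350 counts, TNFRSF8 stood at 0.375 CPM with GFP, 0.453 CPM with DUX4 and 12.5 CPM with DUXC, and TNFRSF12A, the receptor for TWEAK, was higher with DUX4 and lower with DUXC, with 91.7 CPM with GFP, 219 CPM with DUX4 and 51.6 CPM with DUXC. Among 49 cytokine genes other than CISH, 20 were lower and 22 higher with DUX4 and 21 lower and 17 higher with DUXC. IL6 rose in both, with 12.5 ± 0.779 CPM with GFP, 26.4 ± 1.49 CPM with DUX4 and 165 ± 8.93 CPM with DUXC, and so did IL1A, with 11.4 ± 0.641 CPM with GFP, 93.6 ± 4.15 CPM with DUX4 and 134 ± 5.09 CPM with DUXC, while OSMR fell in both, by log2 fold changes of -0.30 ± 0.05 and -1.49 ± 0.06. IL33 fell with DUXC (-0.80 ± 0.03), and its change with DUX4 (-0.07 ± 0.03) lost the call under other scalings and without single libraries.

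The 42 complement and coagulation genes other than C9 and CFB had 21 lower and 11 higher with DUX4 and 20 lower and 14 higher with DUXC. C1S, a protease of the classical pathway, fell with DUX4 (-2.81 ± 0.04), from 155 ± 1.61 to 22.6 ± 2.24 CPM, and stood at 167 ± 0.921 CPM with DUXC (-0.02 ± 0.04, adjusted p = 0.599), where library size alone as scaling turned the sign to 0.10 with adjusted p = 0.00876. SERPING1, which inhibits that protease, stood at 126 ± 4.72 CPM with GFP, 18.5 ± 1.14 CPM with DUX4 and 114 ± 3.94 CPM with DUXC. MASP1 fell in both, with 60.9 CPM with GFP, 13.6 CPM with DUX4 and 23.1 CPM with DUXC, and CLU, or clusterin, rose with DUXC, from 443 ± 3.08 to 1688 ± 33.2 CPM (1.80 ± 0.03), with a log2 fold change of -0.06 ± 0.03 and adjusted p = 0.140 with DUX4.

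Other fibroblast genes and growth factors were read beside PDGFRA and CXCL14. Of 34 other genes common to fibroblasts, 20 were lower and 8 higher with DUX4 and 22 lower and 8 higher with DUXC. SFRP2, a Wnt modulator, stood at 6733 ± 32.1 CPM with GFP, 1867 ± 63.6 CPM with DUX4 and 2035 ± 80.7 CPM with DUXC, and COL15A1, a basement membrane collagen, at 975 ± 15.1 CPM with GFP, 836 ± 24.4 CPM with DUX4 and 366 ± 5.90 CPM with DUXC. DPT, or dermatopontin, was higher with DUX4 (2.18 ± 0.04), with 37.1 CPM with GFP, 171 CPM with DUX4 and 47.5 CPM with DUXC. Of 36 other genes of the PDGF, VEGF, EGF and HGF families, 14 were lower and 15 higher with DUX4 and 17 lower and 16 higher with DUXC. VEGFA stood at 223 ± 9.69 CPM with GFP, 699.8 ± 6.41 CPM with DUX4 and 136 ± 4.69 CPM with DUXC, ANGPT2 at 4.07 CPM with GFP, 51.8 CPM with DUX4 and 129 CPM with DUXC and AREG at 149 CPM with GFP, 139 CPM with DUX4 and 42.1 CPM with DUXC.

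For the developmental pathways of CDON, HEYL and ROR1, hedgehog genes passed as lower in 8 of 13 and higher in 2 with DUX4, and as lower in 7 and higher in 4 with DUXC. GAS1, another hedgehog co-receptor, fell in both, with 194 ± 8.89 CPM with GFP, 51.3 ± 1.99 CPM with DUX4 and 164 ± 4.44 CPM with DUXC, and the target gene GLI1 rose with DUX4, with 1.81 ± 0.186 CPM with GFP, 5.37 ± 0.542 CPM with DUX4 and 2.61 ± 0.227 CPM with DUXC. Its rise with DUXC lost the call without GFP replicate 1. Among 17 Notch genes 6 were lower and 7 higher with DUX4 and 8 lower and 7 higher with DUXC. NOTCH3 fell in both (-2.47 ± 0.04 and -2.79 ± 0.04) and the ligand DLL1 rose in both (2.03 ± 0.22 and 3.69 ± 0.18). Of 27 Wnt ligands and receptors 14 were lower and 6 higher with DUX4 and 14 lower and 11 higher with DUXC. FZD7, a Wnt receptor of satellite cells, stood at 123, 130.4 and 130.2 CPM with GFP, 55.8, 55.9 and 53.1 CPM with DUX4 and 163, 164 and 156 CPM with DUXC. Its groups did not overlap, and the changes were -1.24 ± 0.04 and 0.21 ± 0.03.

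Genes of muscle were read because the cells are labelled as myoblasts. Of 31 myogenic regulators other than CDON and HEYL, 26 passed the filter. With DUX4, 6 were lower and 14 higher (23.1% and 53.8%, beside 31.9% and 32.9% of all tested genes). With DUXC, 9 were lower and 17 higher (34.6% and 65.4%, beside 42.3% and 40.2%). Genes such as MSTN did not pass the filter through the GFP libraries, so it partly sets these shares and nothing is read from them. VCAM1, an adhesion receptor of satellite cells, stood at 2.34, 2.93 and 2.71 CPM with GFP, 2.28, 1.78 and 1.91 CPM with DUX4 and 82.6, 89.9 and 87.7 CPM with DUXC. VCAM1 fell with DUX4 (-0.44 ± 0.12, adjusted p = 0.00186) and rose with DUXC (4.91 ± 0.07, adjusted p = 1.73e-46). MET, the receptor for hepatocyte growth factor, stood at 57.3 CPM with GFP, 146 CPM with DUX4 and 95.8 CPM with DUXC. MSTN, the muscle growth inhibitor, had 3, 57 and 31376 counts with GFP, DUX4 and DUXC. Of 65 sarcomere genes other than KLHL40, 43 passed the filter. With DUX4, 12 were lower and 14 higher (27.9% and 32.6%, beside 31.9% and 32.9% of all tested genes). With DUXC, 12 were lower and 25 higher (27.9% and 58.1%, beside 42.3% and 40.2%). TPM1 and TPM2 were lower in both. The 65 genes summed to less with both transgenes, with 3821 to 3869 CPM with GFP, 2306 to 2381 CPM with DUX4 and 2034 to 2126 CPM with DUXC. With KLHL40, their median with GFP was 0.229 CPM.

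For HSD11B1, 29 of 37 other genes of glucocorticoid response and steroid metabolism passed the filter. With DUX4, 11 were lower and 11 higher (37.9% each, beside 31.9% and 32.9% of all tested genes). With DUXC, 7 were lower and 17 higher (24.1% and 58.6%, beside 42.3% and 40.2%). Their median log2 fold change with DUXC was 0.81, beside -0.03 over all tested genes. The part of the filter in these values was not tested. PER1, a clock gene induced by glucocorticoids, stood at 23.7 ± 0.626 CPM with GFP, 20.3 ± 1.20 CPM with DUX4 and 71.8 ± 2.34 CPM with DUXC and SGK1, a kinase induced by them, at 101 ± 7.05 CPM with GFP, 91.8 ± 3.07 CPM with DUX4 and 251 ± 2.11 CPM with DUXC. Both fell slightly with DUX4 (-0.24 ± 0.05 and -0.16 ± 0.04) and rose with DUXC (1.48 ± 0.05 and 1.19 ± 0.04). GLUL, or glutamine synthetase, rose in both, by 0.17 ± 0.04 and 3.33 ± 0.04. CRISPLD2 fell in both, with 287 CPM with GFP, 176 CPM with DUX4 and 102 CPM with DUXC. Among 23 sterol synthesis genes other than TM7SF2, 4 were lower and 10 higher with DUX4 and 8 lower and 9 higher with DUXC, and FDFT1, or squalene synthase, had 38.7 ± 0.649 CPM with GFP, 28.3 ± 1.16 CPM with DUX4 and 69.5 ± 1.71 CPM with DUXC. Of 92 metabolite transporters other than SLC43A2, 20 were lower and 38 higher with DUX4 and 40 lower and 36 higher with DUXC, SLC7A5 standing at 212 CPM with GFP, 303 CPM with DUX4 and 84.6 CPM with DUXC.

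The 149 developmental transcription factors that are not members had 59 lower and 51 higher with DUX4 and 50 lower and 64 higher with DUXC. ETV1 stood at 63.7 ± 2.29 CPM with GFP, 53.2 ± 1.74 CPM with DUX4 and 234 ± 6.17 CPM with DUXC, EBF2 at 8.92 CPM with GFP, 8.19 CPM with DUX4 and 72.2 CPM with DUXC and PRRX1, a factor of limb mesenchyme, at 1946 CPM with GFP, 1189.5 CPM with DUX4 and 766 CPM with DUXC. For NR4A3, 40 other nuclear receptor and retinoid genes had 18 lower and 14 higher with DUX4 and 20 lower and 13 higher with DUXC, with ALDH1A1 and ALDH1A3 lower in both and NR2F2 at 7.18 CPM with GFP, 6.45 CPM with DUX4 and 50.8 CPM with DUXC. Of 99 synapse and neuronal adhesion genes other than CNTN1, 68 passed the filter. With DUX4, 31 rose and 10 fell (45.6% and 14.7%, beside 32.9% and 31.9% of all tested genes). With DUXC, 43 rose and 17 fell (63.2% and 25.0%, beside 40.2% and 42.3%). GDNF, a neurotrophic factor, stood at 7.78 CPM with GFP, 11.8 CPM with DUX4 and 149.7 CPM with DUXC. For SEMA6B, 56 other axon guidance genes had 22 lower and 20 higher with DUX4 and 25 lower and 22 higher with DUXC, EPHB3 standing at 25.4 ± 1.35 CPM with GFP, 17.6 ± 0.260 CPM with DUX4 and 84.2 ± 2.68 CPM with DUXC. For LPAR3, 99 other G protein-coupled receptor and RGS genes had 29 lower and 36 higher with DUX4 and 44 lower and 42 higher with DUXC, with LPAR6 at 5.54 CPM with GFP, 5.34 CPM with DUX4 and 147 CPM with DUXC.

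The remaining lists were those of MATN2, ADAMTS8 and CLIC2. Of 58 proteoglycan and matricellular genes 29 were lower and 17 higher with DUX4 and 35 lower and 19 higher with DUXC, with THBS2 at 647 CPM with GFP, 235 CPM with DUX4 and 374 CPM with DUXC. Of 60 matrix proteases and inhibitors 27 were lower and 21 higher with DUX4 and 32 lower and 20 higher with DUXC, and ADAMTS4 had 18.2 ± 0.304 CPM with GFP, 43.6 ± 2.97 CPM with DUX4 and 1462 ± 53.4 CPM with DUXC. Of 85 ion channel genes 26 were lower and 41 higher with DUX4 and 33 lower and 37 higher with DUXC, KCNE4 standing at 83.9 CPM with GFP, 12.2 CPM with DUX4 and 11.11 CPM with DUXC.

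Around the thresholds of the rule, values of genes inside and outside lay close together. The members of lowest level with DUXC were LOC110255686 at 1.01 CPM, LOC102159588 at 1.05 and LOC110260305 at 1.06, and the genes just below were NFASC at 0.967, NR2E1 at 0.950 and SRCIN1 at 0.746. At the limit of the fall, CDKL4, ZFP57 and HOXC13 had ratios of DUX4 to GFP of 0.499, 0.496 and 0.496, and EGR3, MYCL and PDZD7, just outside, 0.501, 0.503 and 0.506. At the limit of the rise, BACH2, KLHL40 and MITF had ratios of DUXC to GFP of 2.01, 2.01 and 2.02, and PIK3C2B, SYBU and PTPRE 1.99, 1.98 and 1.98. EGR3, an immediate early factor, stood at 2.67, 1.34 and 8.55 CPM with GFP, DUX4 and DUXC and MYCL at 14.5, 7.31 and 46.8 CPM, so both missed the rule by the fall alone. Of the members not yet named for it, MATN2, ZFP57 and LOC102159588 were lost under TMM scaling and LOC110255686 under either other scaling. Further members met the rule under both scalings but not without at least 1 of the libraries, among them SPTLC3, DNAH3 and SEMA6B, each lost without 3 libraries in turn, and CDKL4, lost without 4.

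Beside all tested genes, the members were scarcer in the control, with a median of 1.06 CPM beside 14.1 CPM and with 44.9% under 1 CPM beside 23.3%. Their libraries spread more within the GFP group, with a median coefficient of variation of 12.5% beside 4.75%. The median span was 30.7 kb beside 25.3 kb, and 8.25% were long noncoding RNAs beside 7.92%. A scarce gene can meet the rule through a rise to 1 CPM, so these differences in level are partly set by the choice and were not tested. Counting error is larger for scarce genes, and its part in the larger spread was not tested.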

How the data were processed

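Poly(A) RNA of 9 libraries, 3 each with DUX4, DUXC and GFP, was counted per gene by the authors, and the deposited table holds raw counts. The submitters' processing notes name CASAVA 1.9, Trim Galore, featureCounts and the pig build Sscrofa11.1. The annotation release, the strand setting and the treatment of reads with several matches were not given in the sources used here, and mixed reads of near-identical genes could shift members with close copies.

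Members were found on CPM by column total. Differences were fitted in R 4.3.3 with edgeR 4.0.16 (quasi-likelihood, robust, TMM, filterByExpr, all 9 libraries), and called at a false discovery rate of 0.05 over 15956 genes after 11383 were removed. An exact permutation test of 3 libraries against 3 cannot go below p = 0.1 and was not used. Low counts carry 95% exact intervals. Other scalings, filters, tools (DESeq2 1.42.0, limma 3.58.1) and left-out libraries were tried.

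The members, gene lists and role groups were chosen with earlier results of these data known. Genes of lists are named from the 4 per list with the smallest p-values against GFP, and among flanking genes those called lower with DUX4 and higher with DUXC. Chi-square per degree of freedom between libraries of a group was 2.62 to 3.67 with GFP, 3.19 to 4.39 with DUXC and 6.83 to 17.9 with DUX4. No library was a copy of another. The fit used the same estimate of spread for all groups, which may be too small for DUX4. The transgenes' own levels were not analysed here. Values of a few genes within these rules are not reported here.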

Additional observations from a re-analysis of the deposited data

How the results depend on the processing

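The size of the module followed the thresholds: 48 genes with a minimum of 5 CPM with DUXC, 258 with 1.5-fold limits and 25 with 3-fold limits, against 98. With TMM scaling 87 genes met the rule, 80 of them members, and with DESeq2 size factors 86, all members. Without 1 library the number ran from 92 to 117, and 58 members were kept under both scalings and without each library in turn. Counts of called genes over the whole table and over flanking genes stayed within 1.5 times under every alternative run. Of 2112 list counts, 2 moved by more, both for chemokines without the low-count filter. C1S turned with library size alone, to 0.10 with DUXC. In 324 comparisons of 108 named genes other than members, 16 changed a call under at least 1 alternative, among them GLI1 with DUXC and CCL5, IL33, NR2F2 and SOS1 with DUX4. Libraries with the same number had residual correlations of -0.15 to 0.16 over 11577 genes, so no clear pairing by number was seen. The labels do not say whether such libraries were handled together. With a replicate block none of 18 counts moved past 1.5 times, and 5068 genes were lower with DUX4 than with GFP. Promoter motifs were not run, since no sequence was used here. Members with 10 counts or fewer with DUX4 have falls that depth limits.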
